A study of Mus musculus with 10 samples.

Results

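The genes described here are the solute carriers of the mouse genome that the array measured, apart from the sodium, potassium and chloride cotransporter gene Slc12a2 and the Slc2a, Slc16a and Slc25a families. They were taken by symbol: every gene whose probe set named that gene alone and whose symbol began with Slc and a number. Of the 12393 genes with such a probe set, 213 met the rule, each read from its probe set with the highest mean over the 10 arrays. Of these, 134 passed the filter on low values and were tested among 9320 genes in all. The 79 others had a highest signal of 111.3 on any array and a median highest signal of 31, and are not tested below.

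Cells of sweat glands and of the epidermis were taken from mouse paw pads and separated by fluorescence-activated cell sorting into 5 populations. These were the contractile myoepithelial cells and the secretory luminal cells of the gland coil, the basal and suprabasal cells of the straight duct, and the palmoplantar epidermis. All came from wild-type female CD1 mice, and each population was measured on 2 arrays that the labels call biological replicates. The age of the mice, the sorting markers and the number of animals behind an array are not given in the labels. The p-values thus rest on the spread between arrays, which may be technical. It is pooled over the 5 populations, although they differed in this spread, as given below. Values are MAS5 signals, compared as log2(signal + 12) with limma in 1 fit of all 10 arrays, which understates the differences of dim genes. A gene "passed", "rose" or "fell" where its p, adjusted over all 9320 tested genes by the method of Benjamini and Hochberg, was under 0.05.

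Solute carriers are membrane proteins that move ions, sugars, amino acids, metals and other small molecules, either down their gradients or coupled to sodium, protons or chloride. In an exocrine gland the ion exchangers and cotransporters of the Slc4, Slc9, Slc12 and Slc26 families set chloride, bicarbonate, sodium and potassium across the secretory and ductal cells. The remaining families mostly feed the cell with nutrients and metals. Not all genes with an Slc symbol encode carriers of the plasma membrane. The products of Slc9a3r1 and Slc9a3r2 are scaffold proteins that bind membrane transporters, and Slc4a1ap is also no carrier; they are kept in counts over all 134 genes. A further 39 genes, 30 of them tested, belong to families of vesicles, the endoplasmic reticulum or the Golgi (Slc17, Slc18, Slc30, Slc32, Slc33, Slc35 and Slc37), so the set is a set of symbols rather than of surface proteins.

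Cell type markers went with the labels for the most part, but suprabasal epidermis markers were not higher in duct suprabasal than in duct basal cells. These 5 genes summed to 22714.8 and 43373.6 in duct basal, 20840.3 and 24548.6 in duct suprabasal cells and 105720 and 103442 in epidermis. Basal genes (5) summed to 80062.5 and 82686 in duct basal and 25269.4 and 35091.7 in duct suprabasal cells. The summed signal of 5 myoepithelial genes was 112213 and 165192 in myoepithelial cells and at most 3430.1 elsewhere, and that of 6 luminal genes was 65595.6 and 79868.9 in luminal cells. The luminal sum was uneven in 2 other populations, with 18036.2 on myoepithelial array 1 and 7979.6 on array 2, and 37718.5 on duct suprabasal array 1 and 16780.9 on array 2. Endothelial genes (5) summed to 1947.6 and 10067 in duct suprabasal cells and 53.1 to 451.5 elsewhere, and fibroblast genes (6) to 16256.2 and 86061.7 in duct suprabasal cells, 23953.9 and 20172.2 in duct basal, 12864.9 and 16289.2 in myoepithelial cells, and at most 6151.4 elsewhere. Most of the fibroblast sum in the outer layers was Dcn alone, with 22038.7 and 18361.4 in duct basal and 11955.1 and 15302.5 in myoepithelial cells. In duct suprabasal cells Dcn had 6094.2 and 33119.6. Immune genes (6) summed to 3900.1 and 5742.6 in myoepithelial cells, against 200.3 and 733.4 in luminal cells. In sorted bulk samples fewer cells of a type and less RNA per cell cannot be told apart. Between the arrays of a population, 41 of the 134 carriers (30.6%) differed over 2-fold in duct suprabasal cells, against 20.1% of all genes, and 26 (19.4%, against 7.93%) in myoepithelial cells. The counts were 15 (11.2%, against 8.91%) in duct basal, 6 (4.48%, against 5.42%) in epidermal and 4 (2.99%, against 6.49%) in luminal cells.

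Luminal cells of the coil were the population in which a carrier most often had its highest mean of log2(signal + 12). This held for 53 of the 134 genes (39.6%), against 22% of all genes tested. Myoepithelial cells had the highest mean for 31 carriers (23.1%, against 25% of all genes), epidermis for 20 (14.9%, against 22.5%), duct suprabasal cells for 18 (13.4%, against 13.1%) and duct basal cells for 12 (8.96%, against 17.4% of all genes). In the F test over the 5 populations 83 carriers passed, 61.9% of those tested, against 65.7% of all genes.

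**Figure D1:**
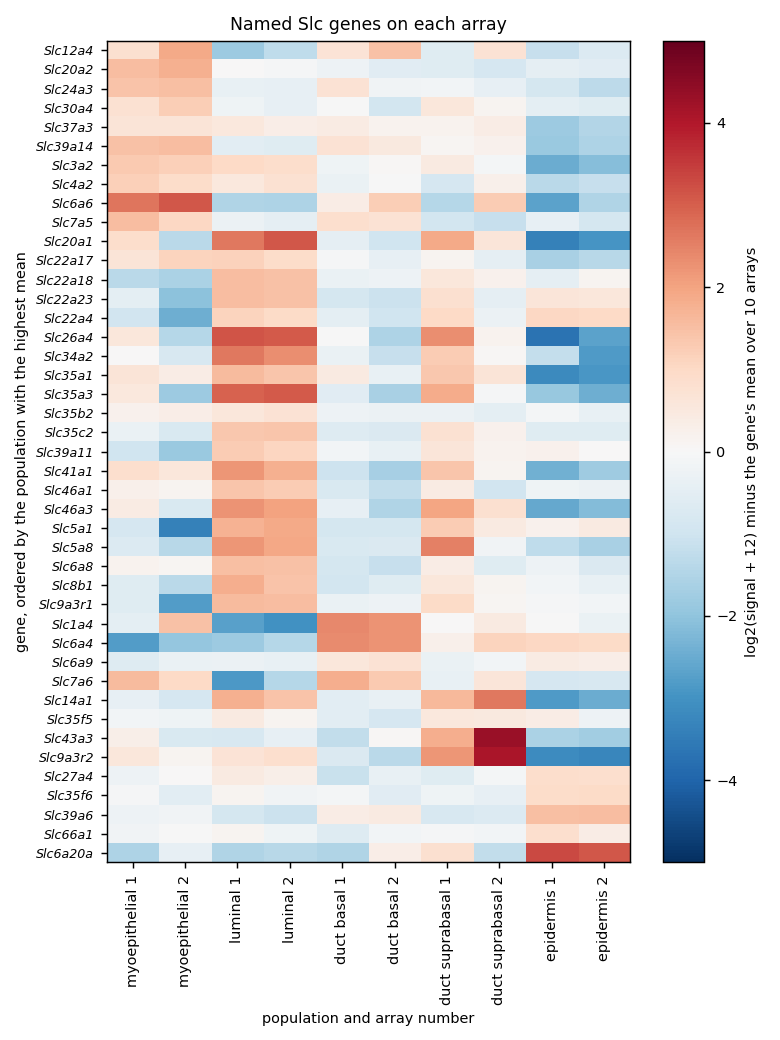
Heat map of the 43 carrier genes named by the rule in the 5 comparisons (rows, ordered by the population with the highest mean) on each of the 10 arrays (columns). Colour gives log2(signal + 12) minus the gene's mean over the arrays, and the block of genes that are bright in luminal cells is mostly brighter on array 1 than on array 2 of the myoepithelial and duct suprabasal populations.

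The ion exchangers and cotransporters come first. The families Slc4, Slc9, Slc12 and Slc26 had 28 measured symbols, of which 16 were tested. Among these 16, 3 rose and 5 fell in myoepithelial relative to luminal cells, where 16.5% and 14.5% of all genes did, and 7 rose and 0 fell in duct basal cells relative to epidermis, where 23% and 11% of all genes did. Between the duct layers only the scaffold gene Slc9a3r2 passed, beside 16.4% of all genes. The 12 that were not tested were Slc4a1, Slc4a5, Slc4a8, Slc4a10, Slc9b1, Slc12a1, Slc12a3, Slc12a8, Slc26a1, Slc26a3, Slc26a5 and Slc26a8.

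Slc26a4 encodes pendrin, an exchanger of chloride for bicarbonate and iodide. Its signal was 237 and 49.7 in myoepithelial cells, 1469 and 1396 in luminal cells, 150.2 and 45.2 in duct basal cells, 828 and 177 in duct suprabasal cells and 1 and 13.7 in epidermis. Luminal cells were high on both arrays and epidermis low on both, while the other populations varied several-fold between their arrays. The log2 difference of myoepithelial from luminal cells was -3.54 (SE 0.84, adjusted p = 0.0116). That call ended without luminal array 1 (-3.51, adjusted p = 0.0616), luminal array 2 (-3.58, adjusted p = 0.0593) or myoepithelial array 2 (-2.54, adjusted p = 0.0937).

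Slc4a4, the sodium bicarbonate cotransporter gene, also had its highest mean in luminal cells and its lowest in epidermis, with myoepithelial and duct basal cells nearly level. It stood at 124 and 36.2 in myoepithelial cells, 488 and 418 in luminal cells, 113 and 46.3 in duct basal cells, 475 and 138 in duct suprabasal cells and 5.3 and 4.9 in epidermis. It fell by 2.52 on the log2 scale in myoepithelial relative to luminal cells (SE 0.65, adjusted p = 0.0167) and was higher in duct basal cells than in epidermis by 2.32 (adjusted p = 0.0222). The first call ended without either luminal array or myoepithelial array 2 (adjusted p 0.0691 to 0.126). The second ended without duct basal array 1 or either epidermis array (0.0932 to 0.154) and with a pseudocount of 50 (1.18, adjusted p = 0.0984).

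The potassium chloride cotransporter genes went in opposite directions. Slc12a4 had signals of 247 and 540.3 in myoepithelial cells, 29.9 and 50.3 in luminal cells, 226 and 395 in duct basal cells, 84.6 and 234 in duct suprabasal cells and 54.2 and 80.7 in epidermis. Slc12a7 had 222 and 154 in myoepithelial cells, 690.5 and 643 in luminal cells, 345 and 289.8 in duct basal cells, 504 and 610.0 in duct suprabasal cells and 105 and 74.1 in epidermis. Myoepithelial cells were thus above luminal cells for Slc12a4, by 2.89 (SE 0.53, adjusted p = 0.00393), and below them for Slc12a7, by -1.78 (SE 0.26, adjusted p = 0.00147), with no overlap of arrays. Both calls held without each array in turn. Both genes were also higher in duct basal cells than in epidermis (log2 differences 1.99 and 1.71, adjusted p = 0.0189 and 0.00142). The Slc12a4 call against epidermis ended without duct basal array 2 or either epidermis array (adjusted p 0.0562 to 0.116) and with quantile normalization (1.51, adjusted p = 0.0837). Slc12a9, related by sequence to the cotransporters, was at -0.85 in myoepithelial against luminal cells (adjusted p = 0.0524), and the neuronal cotransporter gene Slc12a5 passed in none of the 5 comparisons, with an F test adjusted p of 0.435 and signals from 17.8 to 78.

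The anion exchanger genes Slc4a2 and Slc4a3 had their highest mean in myoepithelial cells. Slc4a2, a chloride and bicarbonate exchanger of most tissues, had 818 and 675 in myoepithelial cells, 508 and 603 in luminal cells, 278 and 346 in duct basal cells, 192 and 422 in duct suprabasal cells and 130.1 and 150.0 in epidermis. Its difference was 1.23 in myoepithelial against duct basal cells (SE 0.34, adjusted p = 0.0279) and 1.09 in duct basal cells against epidermis (adjusted p = 0.0343), while the coil layers differed by 0.42 (adjusted p = 0.390). Slc4a3 had 156 and 234 in myoepithelial cells, 29 and 86.3 in luminal cells, 19.9 and 54.5 in duct basal cells, 18.6 and 82.7 in duct suprabasal cells and 2.9 and 6.8 in epidermis, with 2.14 in myoepithelial against duct basal cells (SE 0.65, adjusted p = 0.0409). The myoepithelial calls of Slc4a2 and Slc4a3 ended without any 1 of the 4 arrays compared, that of Slc4a3 also without either epidermis array (adjusted p 0.0761 to 0.134 and 0.0643 to 0.196). Quantile normalization gave 1.19 (adjusted p = 0.0560) and 2.00 (adjusted p = 0.0517). For Slc4a2 in duct basal cells against epidermis it gave 0.67 (adjusted p = 0.235), and that call ended without either array of duct basal, luminal or epidermal cells (0.0529 to 0.156). For Slc4a3 the myoepithelial call also ended with a pseudocount of 1 (adjusted p = 0.0761) or no filter (0.0510).

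In the Slc26 family, Slc26a6, an exchanger of chloride for oxalate and bicarbonate, had signals of 139 and 149.7 in myoepithelial cells and 46.5 and 69 in luminal cells, with 139 and 140.5 in duct basal cells, 79.5 and 119 in duct suprabasal cells and 60.9 and 73.2 in epidermis. The coil layers differed by 1.18 (SE 0.32, adjusted p = 0.0198), and the call ended without either myoepithelial array or luminal array 1 (0.0670 to 0.128). Duct basal cells exceeded epidermis by 0.94 (adjusted p = 0.0448), a call that ended without any 1 array outside duct suprabasal cells (0.0543 to 0.189), with quantile normalization (0.45, adjusted p = 0.310), with a pseudocount of 1 (0.0525) and with no filter (0.0792). Slc26a7, an anion exchanger and channel gene, had 17.7 and 2.2 in myoepithelial cells and 47.2 and 84.4 in luminal cells, a difference of -1.88 (SE 0.61, adjusted p = 0.0427). At these low signals the call ended without either luminal array, either epidermis array or myoepithelial array 2 (0.0609 to 0.244) and with a pseudocount of 1 (-3.05, adjusted p = 0.102). The sulfate carrier gene Slc26a2 had 607 and 635 in myoepithelial cells and 1728 and 1253 in luminal cells, which did not pass (-1.23, adjusted p = 0.0856).

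Of the sodium proton exchanger genes 2 were tested. Slc9a8 had signals of 78.8 and 106 in myoepithelial cells, 97.9 and 59.8 in luminal cells, 51.7 and 47.4 in duct basal cells, 60.2 and 90.2 in duct suprabasal cells and 1.3 and 3 in epidermis. It was higher in duct basal cells than in epidermis by 2.12 (SE 0.39, adjusted p = 0.00312), and no comparison among gland and duct cells passed. The epidermis signals of Slc9a8 lay below the 40th percentile of their arrays, so the size of this difference depends on the number added before the logarithm. Slc9b2 ranged from 0.8 to 95.4 over the 10 arrays and did not pass in the F test (adjusted p = 0.371). Of the symbols that name no carrier, Slc4a1ap had 352 and 293 in myoepithelial cells and 188 and 189 in luminal cells (0.73, SE 0.21, adjusted p = 0.0292). This call ended without any 1 of those 4 arrays (0.0692 to 0.156), with quantile normalization (0.59, adjusted p = 0.0599) and without myoepithelial array 1 together with either duct suprabasal array (0.60, adjusted p = 0.125).

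**Figure D2:**
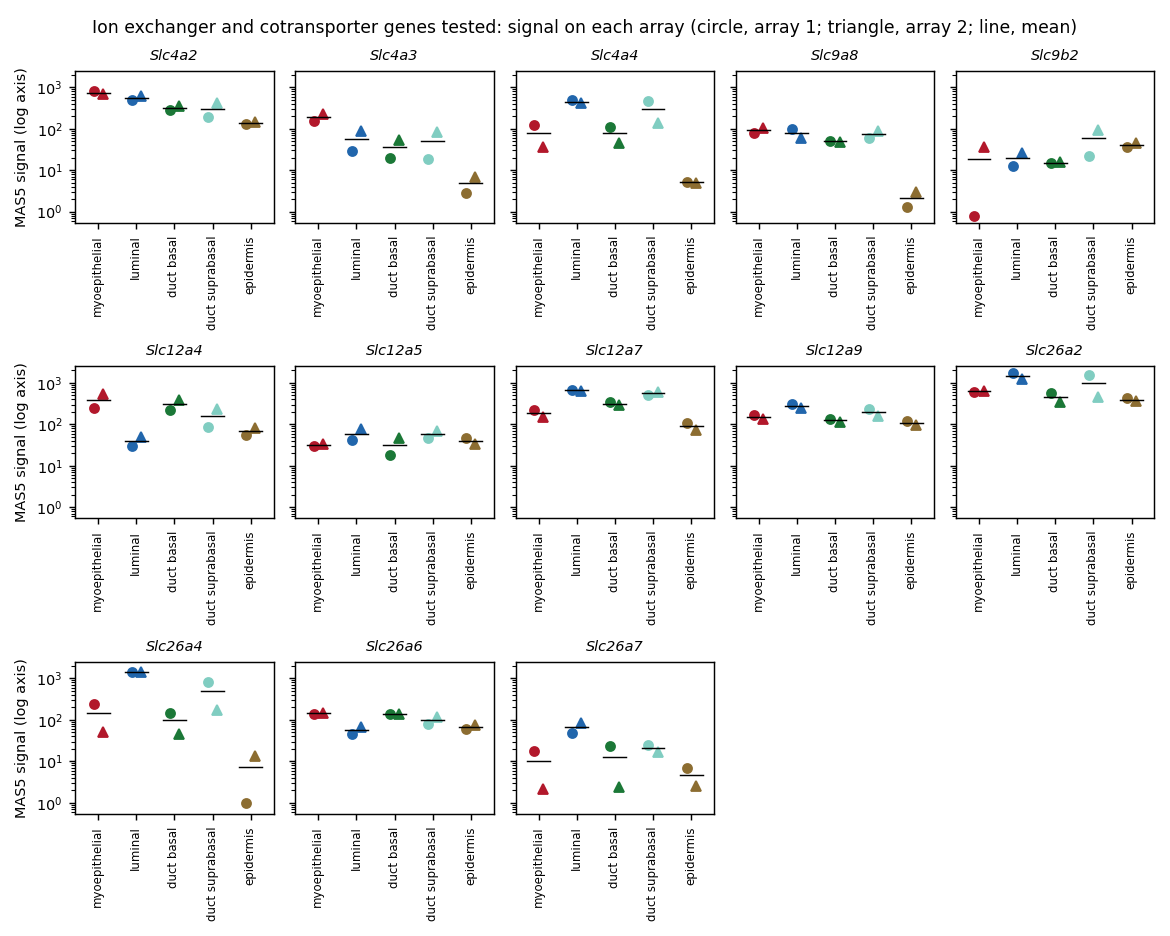
Signal (log axis) of the 13 tested carriers of the families Slc4, Slc9, Slc12 and Slc26 in the 5 populations, with a circle for array 1, a triangle for array 2 and a line at their mean. Slc26a4, Slc4a4 and Slc12a7 have their highest mean in luminal cells, and Slc12a4, Slc4a2 and Slc4a3 in myoepithelial cells.

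The scaffold genes Slc9a3r1 and Slc9a3r2 each passed in a layer comparison. Slc9a3r1, whose product links transporters of the apical membrane to ezrin, had 2048 and 445 in myoepithelial cells, 9513 and 9061 in luminal cells, 2478 and 2661 in duct basal cells, 6046 and 3371 in duct suprabasal cells and 3027 and 2823 in epidermis. The coil layers differed by -3.26 (SE 0.56, adjusted p = 0.00292), and the call held without each array in turn. Slc9a3r2, its paralog, had 214 and 154 in myoepithelial cells, 231 and 264 in luminal cells, 79.7 and 47.4 in duct basal cells, 688 and 2545 in duct suprabasal cells and 5.4 and 4 in epidermis. Duct basal cells were below duct suprabasal cells by -4.18 (SE 0.53, adjusted p = 0.00206), without overlap. They were above epidermis by 2.15 (adjusted p = 0.0131), which ended without duct basal array 1 or either epidermis array (0.0616 to 0.0932), with a pseudocount of 50 (1.04, adjusted p = 0.131) and with the mean of its probe sets (0.40, adjusted p = 0.488). On duct suprabasal array 2, where Slc9a3r2 was brightest, 5 of 5 endothelial and 6 of 6 fibroblast markers were also brighter than on array 1, and their part in the result was not tested.

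Between the coil layers 47 of the 134 carriers passed (35.1%, against 31.1% of all genes). In myoepithelial cells 13 rose (9.70%, against 16.5% of all genes) and 34 fell (25.4%, against 14.5%). The median log2 difference, myoepithelial minus luminal, was -0.243 over the carriers and 0.0759 over all genes. Substrate groups were set by family number, so a group can hold carriers of other substrates. Without the 3 symbols of no carrier, 4 of 18 tested ion carriers rose and 7 fell. Of 27 genes of the amino acid, peptide and neurotransmitter families 4 rose and 3 fell, and of 22 of the metal families 4 rose and 3 fell. None of the other groups had a member that rose. In these, 8 of 20 nucleotide sugar and sugar phosphate carriers fell, 4 of 12 of the organic ion and nucleoside families, 2 of 9 of the lipid and choline families and 2 of 8 of the vitamin families. Of the 8 in the sugar families outside Slc2a 2 fell, Slc5a1 and the monocarboxylate carrier gene Slc5a8. Leaving out myoepithelial array 2 gave 23 carriers in place of 47, leaving out luminal array 1 gave 28 and luminal array 2 gave 30.

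Carriers of amino acids and of taurine led the myoepithelial side. Slc6a6, the sodium-dependent taurine carrier gene, had signals of 2267 and 3109.5 in myoepithelial cells, 113 and 111 in luminal cells, 456 and 834 in duct basal cells, 121 and 851 in duct suprabasal cells and 43.7 and 113 in epidermis. Both myoepithelial arrays lay above every other array, and the coil layers differed by 4.43 (SE 0.75, adjusted p = 0.00256), a 21.5-fold difference. Slc7a6, which encodes a light chain that exchanges basic for neutral amino acids, had 436 and 286 in myoepithelial cells, 8.6 and 43.8 in luminal cells, 517 and 361 in duct basal cells, 103 and 216 in duct suprabasal cells and 71.6 and 75.1 in epidermis. It was higher in both outer layers than in any inner layer array and rose by 3.43 between the coil layers (SE 0.50, adjusted p = 0.00143).

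Slc1a4, a carrier gene for alanine, serine and cysteine, had 334 and 1341 in myoepithelial cells, 62.8 and 47.2 in luminal cells, 2544 and 2334 in duct basal cells, 487 and 653 in duct suprabasal cells and 472 and 377 in epidermis. Luminal cells were the lowest population and duct basal cells the highest, and myoepithelial cells exceeded luminal cells by 3.36 (SE 0.51, adjusted p = 0.00160). Slc7a5, the large neutral amino acid carrier gene, had 1566 and 1103 in myoepithelial cells, 427 and 384 in luminal cells, 959 and 892 in duct basal cells, 275 and 233 in duct suprabasal cells and 397 and 281 in epidermis. Its coil difference was 1.67 (SE 0.24, adjusted p = 0.00142). The heavy chain that pairs with the products of Slc7a5 and Slc7a6 is encoded by Slc3a2, whose signals were 6324 and 5784 in myoepithelial cells, 5053 and 4680.2 in luminal cells, 2196 and 2613 in duct basal cells, 3505 and 2390.0 in duct suprabasal cells and 440.3 and 573 in epidermis. It did not pass between the coil layers.

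**Figure D3:**
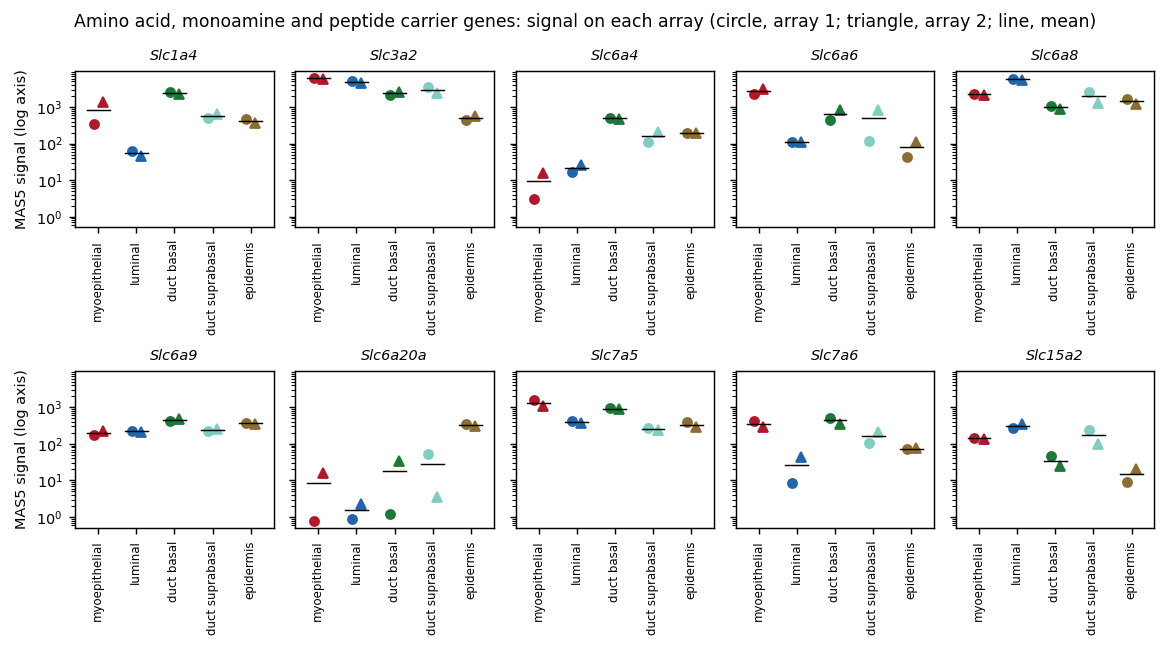
Signal (log axis) of 10 amino acid, monoamine and peptide carrier genes in the 5 populations, with a circle for array 1, a triangle for array 2 and a line at their mean. Slc6a6 is highest in myoepithelial cells, Slc1a4 and Slc6a4 in duct basal cells, Slc6a8 in luminal cells and Slc6a20a in epidermis.

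Phosphate, calcium and zinc carriers were also among the genes that rose. Slc20a2, a sodium phosphate cotransporter gene of most tissues, had 2151 and 2559.8 in myoepithelial cells, 746 and 701 in luminal cells, 621 and 486 in duct basal cells, 472 and 408 in duct suprabasal cells and 533 and 490.1 in epidermis (1.68, SE 0.20, adjusted p = 0.000509). Slc24a3, a potassium-dependent sodium calcium exchanger gene, had 1145 and 1213 in myoepithelial cells and 323 and 312 in luminal cells (1.85, SE 0.30, adjusted p = 0.00224). Slc39a14, a zinc and iron importer gene, had 764 and 802 in myoepithelial cells and 183 and 173 in luminal cells (2.07, SE 0.22, adjusted p = 0.000281). With the mean of all probe sets of the gene the differences were 0.91 for Slc20a2 (adjusted p = 0.104) and 0.94 for Slc39a14 (adjusted p = 0.0847), so these calls hold for the brighter probe set alone.

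On the luminal side Slc5a1 stood first by difference and Slc35a3 second, before Slc26a4 and Slc9a3r1 given above. Slc5a1, the sodium glucose cotransporter gene, had 388 and 57.1 in myoepithelial cells, 2363 and 2624 in luminal cells, 377 and 378 in duct basal cells, 1727 and 964 in duct suprabasal cells and 827 and 964 in epidermis. Luminal cells were above all other arrays, and the coil layers differed by -3.91 (SE 0.65, adjusted p = 0.00232). Slc20a1, the paralog of Slc20a2, had 4066 and 859.8 in myoepithelial cells, 13968 and 18918 in luminal cells, 1598 and 1113 in duct basal cells, 8226 and 3354 in duct suprabasal cells and 204 and 277 in epidermis. It fell in myoepithelial relative to luminal cells by 3.11 on the log2 scale (SE 0.65, adjusted p = 0.00647), where Slc20a2 rose. Another sodium phosphate cotransporter gene, Slc34a2, known for the apical membrane of secretory epithelia, had 116 and 60.9 in myoepithelial cells and 764 and 609.7 in luminal cells (-2.85, SE 0.60, adjusted p = 0.00708). Slc5a8, a sodium-coupled carrier gene for lactate and other monocarboxylates, had 51.2 and 26.9 in myoepithelial cells and 461 and 374 in luminal cells, and 577 and 77.5 in duct suprabasal cells (-3.11, SE 0.72, adjusted p = 0.0104).

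A Golgi carrier and an organic ion carrier were also among the genes named. Slc35a3, the Golgi carrier gene for UDP-N-acetylglucosamine, had 691 and 128 in myoepithelial cells, 3808 and 4093 in luminal cells, 319 and 146 in duct basal cells, 1786 and 454 in duct suprabasal cells and 120.3 and 78.8 in epidermis. Its coil difference was -3.66 (SE 0.78, adjusted p = 0.00737). Slc22a18, an organic cation carrier gene, was even between arrays, with 44.9 and 35.4 in myoepithelial cells, 404 and 379 in luminal cells, 103 and 109 in duct basal cells, 202 and 152 in duct suprabasal cells and 94 and 146 in epidermis (-2.96, SE 0.30, adjusted p = 0.000212). Calls of 3 of the genes named for the luminal side beside Slc26a4 ended when 1 array was left out. That of Slc35a3 ended without myoepithelial array 2 (-2.49, adjusted p = 0.0531). That of Slc5a8 ended without luminal array 1 (-2.96, adjusted p = 0.0639) or myoepithelial array 2 (-2.76, adjusted p = 0.0750), and that of Slc34a2 without the same arrays (-2.69, adjusted p = 0.0511, and -2.44, adjusted p = 0.0591).

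Most of the carriers that were lower in myoepithelial cells were brighter on array 1 of myoepithelial cells, and most on array 1 of duct suprabasal cells. Of the 34, 29 were brighter on myoepithelial array 1 than on array 2, against 71 of the 134 tested, and 28 had more signal on the first duct suprabasal array than on the second, against 77 of the 134. Both duct suprabasal arrays lay above both duct basal arrays and below both luminal arrays for 21 of the 34, against 27 of the 134 tested. The 34 were chosen as lower in myoepithelial than in luminal cells and are among the 134. High luminal signals thus favoured this order in advance, and no conclusion is drawn from it. Shares over all genes were not counted. The reverse order, with luminal cells lowest, was not counted. The summed luminal markers were also higher on array 1 in both populations, and whether luminal transcripts among the sorted cells had a part in these levels was not tested.

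Genes that work with ion carriers were read from a list of 26 pumps, channels, carbonic anhydrases and regulators, of which 24 were on the array and 21 tested, Slc12a2 among them. In myoepithelial relative to luminal cells 2 rose and 13 fell, where 16.5% and 14.5% of all genes did. Foxi1, a transcription factor gene known in the mouse kidney and inner ear for the control of Slc26a4, had 654 and 84.6 in myoepithelial cells, 4566.1 and 3732.4 in luminal cells, 279.7 and 137.9 in duct basal cells, 1510.2 and 360.1 in duct suprabasal cells and 2.9 and 1.4 in epidermis. By mean signal this is the same order of populations as for Slc26a4, with a coil difference of -4.03 (SE 0.86, adjusted p = 0.00740). The order is not particular to these genes. Of the luminal markers, Krt8, Krt18, Krt19, Aqp5 and Cldn3 had it too, and Krt7 did not. A link between Foxi1 and Slc26a4 was not tested. Slc12a2, which is not among the 213 genes, differed by -0.0033 between the coil layers (adjusted p = 0.994), with 23443.8 and 38537.4 in myoepithelial and 23970.6 and 37865.6 in luminal cells. Between the duct layers 2 partners rose and 5 fell in basal cells, where 7.97% and 8.39% of all genes did.

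Promoters of 4 carriers are shown, since these genes stand for the named amino acid and ion carriers on the one side and the named sugar and ion carriers on the other: Slc1a4 and Slc12a4 on the myoepithelial side and Slc5a1 and Slc26a4 on the luminal side. Each is 300 bases from RefSeq on GRCm38.p6, from 250 before to 50 after the start, written 5′ to 3′ on the strand of the gene. Capitals mark matches on either strand to GGGCGG (GC box), TGATGNAA (C/EBP-ATF element), TATAAA (the TATA box) or TGTTTAC (forkhead core), and GC boxes may overlap. The coordinates are chr11:20332664-20332963 (minus strand) for Slc1a4, chr8:105966066-105966365 (minus strand) for Slc12a4, chr5:33103969-33104268 (plus strand) for Slc5a1 and chr12:31559935-31560234 (minus strand) for Slc26a4.
Slc1a4: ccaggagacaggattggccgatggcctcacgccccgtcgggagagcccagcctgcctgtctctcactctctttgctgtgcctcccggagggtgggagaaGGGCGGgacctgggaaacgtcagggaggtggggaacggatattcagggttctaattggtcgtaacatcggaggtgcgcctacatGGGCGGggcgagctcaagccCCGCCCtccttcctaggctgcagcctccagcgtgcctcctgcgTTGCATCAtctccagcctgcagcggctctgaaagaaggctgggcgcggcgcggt
Slc12a4: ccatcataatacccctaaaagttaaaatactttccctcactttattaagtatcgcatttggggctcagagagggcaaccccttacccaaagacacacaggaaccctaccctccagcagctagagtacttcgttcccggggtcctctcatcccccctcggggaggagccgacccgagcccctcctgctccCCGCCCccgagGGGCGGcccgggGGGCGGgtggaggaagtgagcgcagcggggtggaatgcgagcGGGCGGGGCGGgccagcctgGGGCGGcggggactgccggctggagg
Slc5a1: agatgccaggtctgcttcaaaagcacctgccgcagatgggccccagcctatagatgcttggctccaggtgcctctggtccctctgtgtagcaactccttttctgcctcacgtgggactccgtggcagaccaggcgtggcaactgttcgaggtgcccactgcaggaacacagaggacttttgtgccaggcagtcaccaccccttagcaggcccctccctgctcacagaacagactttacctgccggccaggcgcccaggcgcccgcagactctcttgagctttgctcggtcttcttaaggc
Slc26a4: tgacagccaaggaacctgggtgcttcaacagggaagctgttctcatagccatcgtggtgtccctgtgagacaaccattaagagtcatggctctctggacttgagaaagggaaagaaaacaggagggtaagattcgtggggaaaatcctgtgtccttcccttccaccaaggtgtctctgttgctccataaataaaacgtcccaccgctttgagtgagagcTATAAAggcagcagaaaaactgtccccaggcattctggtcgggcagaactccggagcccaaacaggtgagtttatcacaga
The Slc1a4 window holds 1 C/EBP-ATF element and 3 GC boxes, the Slc12a4 window 6 GC boxes, the Slc26a4 window 1 TATA box and the Slc5a1 window none of the 4 motifs.

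Promoter entries were found for 169 of the 213 genes, 228 promoters in all, and 32851 promoters of the mouse genome served as background. A GC box was in 54.4% of the carrier promoters and 35.7% of all promoters, and a TATA box in 11% and 13.6%. The forkhead core was in 1.75% of carrier promoters, against 3.65% of all, and in 0 of the 45 promoters of the 27 matched genes that fell in myoepithelial cells. The C/EBP-ATF element was in 3.51% of carrier promoters, against 3.97% of all. Among the tested carriers it was in Slc1a4, Slc7a7 and Slc50a1. Matches are letters in a window and say nothing of binding.

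Between the layers of the duct 16 carriers passed (11.9%, against 16.4% of all genes). Of these 6 were higher in duct basal cells (4.48%, against 7.97% of all genes) and 10 lower (7.46%, against 8.39%). The median difference, duct basal minus suprabasal, was -0.357 over the carriers and -0.0232 over all genes. Of the 27 tested genes of the amino acid, peptide and neurotransmitter families 5 rose and 2 fell. The 2 were Slc15a2 and Slc43a3, which is a purine nucleobase carrier gene grouped by its family number. Of the 5 that rose, Slc7a5 alone passed without each array in turn. The call of the amino acid carrier gene Slc38a4 (2.29) ended without duct basal array 2. That of the glycine carrier gene Slc6a9 (0.89) ended without either duct basal or epidermis array or duct suprabasal array 1, and Slc1a4 and Slc6a4 are given below. The count was 5 without duct basal array 2 and 37 without duct suprabasal array 2, and it was 3 in a fit of the 4 arrays alone and 41 without duct suprabasal array 2 and myoepithelial array 1 together, which was tried only once the data were known.

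On the basal side, Slc1a4 differed by 2.09 (SE 0.51, adjusted p = 0.0258) and Slc7a5 by 1.82 (SE 0.24, adjusted p = 0.00260), from the signals given above. Slc6a4, the serotonin carrier gene, had signals of 3.1 and 15.3 in myoepithelial cells, 17 and 26.5 in luminal cells, 514 and 478 in duct basal cells, 109.9 and 210.5 in duct suprabasal cells and 200.4 and 190.5 in epidermis. Duct basal cells were highest on both arrays and the coil was lowest, and the duct layers differed by 1.62 (SE 0.40, adjusted p = 0.0266). Slc39a6, a zinc importer gene, had 1235 and 1307 in myoepithelial cells, 801 and 706 in luminal cells, 1943 and 2056 in duct basal cells, 841 and 910.0 in duct suprabasal cells and 4291 and 4331 in epidermis. Its duct difference was 1.18 (SE 0.16, adjusted p = 0.00267), and 0.85 with the mean of its probe sets (adjusted p = 0.0599).

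On the suprabasal side the scaffold gene Slc9a3r2 stood first, as given above. Slc43a3, a purine nucleobase carrier gene, had 40.9 and 13.7 in myoepithelial cells, 13 and 21.2 in luminal cells, 6.7 and 33.7 in duct basal cells, 144 and 862 in duct suprabasal cells and 2.8 and 1.2 in epidermis. Duct basal cells were lower by 3.66 (log2 difference -3.66, SE 0.79, adjusted p = 0.0164). Like Slc9a3r2 it was brighter on duct suprabasal array 2, the array with 10067 summed endothelial signal, and the part of endothelial transcripts in this level was not tested. Slc14a1, the urea carrier gene, had 55.7 and 39.2 in myoepithelial cells, 296 and 232 in luminal cells, 51.5 and 57.7 in duct basal cells, 268 and 554 in duct suprabasal cells and 0.8 and 4.4 in epidermis. Both inner layers were above both outer layers, with differences of -2.58 in the duct (SE 0.40, adjusted p = 0.00433) and -2.22 in the coil (adjusted p = 0.00334).

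Slc41a1, a magnesium carrier gene, had 1312 and 1084 in myoepithelial cells, 3444 and 2523 in luminal cells, 349 and 219.8 in duct basal cells, 1919 and 797 in duct suprabasal cells and 128 and 202 in epidermis, and its duct difference was -2.11 (SE 0.41, adjusted p = 0.0111). Slc46a3, a lysosomal carrier gene, differed by -2.36 (adjusted p = 0.0186), with 102 and 40.8 in duct basal cells and 580.5 and 255 in duct suprabasal cells. The remaining named genes were Slc35f5 (-1.19, adjusted p = 0.0146), Slc35c2, a Golgi carrier gene of the nucleotide sugar family (-1.18, adjusted p = 0.0177), and Slc8b1, the mitochondrial sodium calcium exchanger gene (-1.12, adjusted p = 0.0402). Slc35c2 was at -0.52 with the mean of its probe sets (adjusted p = 0.239).

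Most calls between the duct layers ended when 1 array was left out. Without duct basal array 2 the genes Slc1a4, Slc6a4, Slc46a3, Slc41a1, Slc35f5, Slc35c2 and Slc8b1 no longer passed. Leaving out duct basal array 1 ended the calls of Slc1a4, Slc6a4, Slc43a3, Slc35c2 and Slc8b1, and duct suprabasal array 1 those of Slc1a4, Slc6a4, Slc46a3, Slc35c2 and Slc8b1. Slc6a4 and Slc8b1 also depended on either epidermis array, and Slc8b1 on either luminal array. With a pseudocount of 1 the adjusted p of Slc6a4 was 0.109, and with no filter that of Slc8b1 was 0.0505. The adjusted p-values ran from 0.0758 to 0.112 for Slc1a4, 0.0519 to 0.115 for Slc6a4, 0.0685 to 0.126 for Slc46a3, 0.0580 to 0.0913 for Slc35c2 and 0.0604 to 0.147 for Slc8b1. They were 0.0866 for Slc43a3, 0.0870 for Slc41a1 and 0.0949 for Slc35f5. Slc7a5, Slc39a6, Slc9a3r2 and Slc14a1 passed without each array in turn.

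The outer minus inner difference had the same sign in coil and duct for 96 of the 134 carriers (71.6%), against 58.2% of all genes. In both comparisons 8 carriers passed (5.97%, against 7.30% of all genes), each in the same direction, as did 80.1% of all genes that passed in both. Slc1a4, Slc7a5 and Slc39a6 were higher in the outer layers, and Slc14a1, Slc35c2, Slc41a1, Slc46a3 and Slc8b1 lower. For Slc39a6 the coil difference was 0.75 (adjusted p = 0.00762) and turned to -0.21 with the mean of its probe sets (adjusted p = 0.605), and it ended without myoepithelial array 2 or luminal array 2 (0.0562 and 0.0662). The coil call of Slc41a1 ended without either array of myoepithelial, luminal or epidermal cells (adjusted p 0.0530 to 0.197) and with no intensity trend (0.0625), and that of Slc46a3 without luminal array 1 or myoepithelial array 2 (0.0641 and 0.0848). Of the 8, only Slc7a5 and Slc14a1 passed in both comparisons without each array in turn. In the test of the difference between the layer differences 12 carriers passed (8.96%, against 16% of all genes). Slc43a3 was among the 12, with 0.36 in the coil and -3.66 in the duct (adjusted p = 0.0398 for the difference). Outside duct suprabasal cells its signals were below the 40th percentile of each array, so the size of this difference depends on the number added before the logarithm. The count of 12 was 26 without duct suprabasal array 1, 5 without luminal array 1 or duct basal array 2 and 6 without myoepithelial array 2 or luminal array 2.

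**Figure D4:**
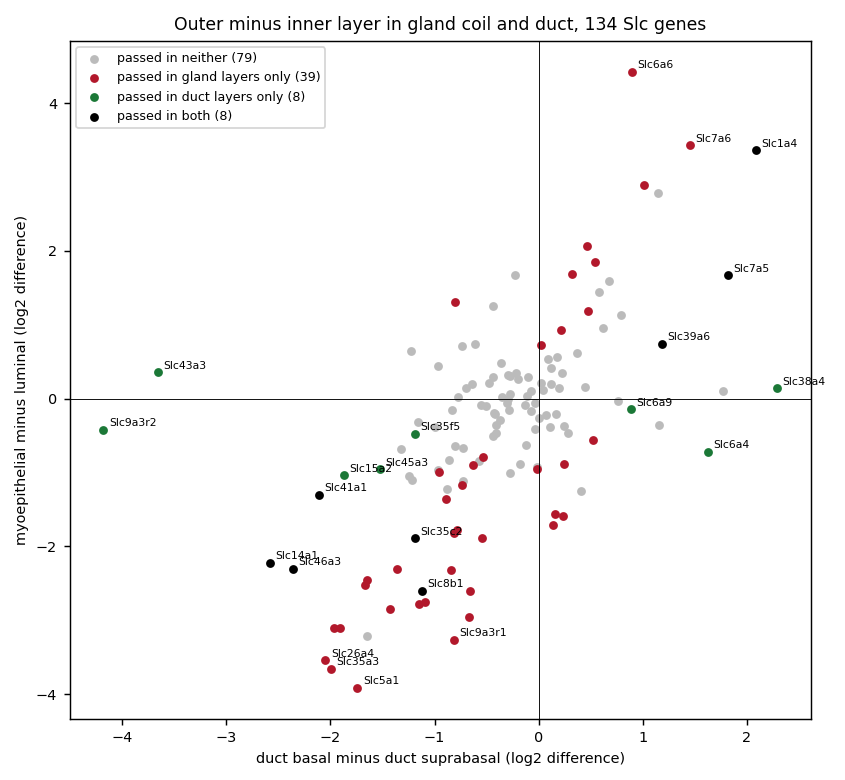
Outer minus inner layer difference (log2) in the coil (vertical axis, myoepithelial minus luminal) against that in the duct (horizontal axis, duct basal minus duct suprabasal) for the 134 tested carriers. Of these 79 passed in neither comparison, 39 in the coil only, 8 in the duct only and 8 in both, and the black points lie in the upper right and lower left.

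Between the outer layers, myoepithelial against duct basal cells, 24 carriers passed (17.9%, against 24.3% of all genes). Of these 13 were higher in myoepithelial cells (9.70%, against 12% of all genes) and 11 lower (8.21%, against 12.3%), and quantile normalization gave 10 higher and 13 lower. Of the 18 tested ion carriers, symbols of no carrier left out, 4 were higher and 0 lower, and amino acid, peptide and neurotransmitter carriers divided into 3 higher and 4 lower of 27. Slc20a2 differed by 2.07 (SE 0.20, adjusted p = 0.000126) and Slc3a2, the heavy chain gene, by 1.33 (SE 0.22, adjusted p = 0.00291). Slc41a1 differed by 2.06 (SE 0.41, adjusted p = 0.00690). Slc6a4 was at -4.64 (SE 0.40, adjusted p = 6.95e-05). Its myoepithelial signals of 3.1 and 15.3 lay below the 40th percentile of their arrays, so the size of this difference depends on the number added before the logarithm.

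Slc30a4, a zinc exporter gene of vesicles and of the mammary gland, had 1329 and 1835 in myoepithelial cells, 666 and 580.5 in luminal cells, 763 and 407 in duct basal cells, 1144 and 845 in duct suprabasal cells and 554 and 501 in epidermis (1.47, adjusted p = 0.00851). Slc6a8, the creatine carrier gene, had 2253 and 2176 in myoepithelial cells and 1089 and 901 in duct basal cells (1.15, adjusted p = 0.0224), and 0.64 with the mean of its probe sets (adjusted p = 0.101). Slc24a3 differed by 1.20 (adjusted p = 0.0199) and Slc22a17, a receptor gene for lipocalin-2, by 1.10 (adjusted p = 0.0281). Lower in myoepithelial cells were Slc1a4 (-1.84, adjusted p = 0.0293), the zinc carrier gene Slc39a11 (-1.15, adjusted p = 0.0209) and the glycine carrier gene Slc6a9 (-1.12, adjusted p = 0.00605). The count of 24 was 5 without duct basal array 2, 8 without myoepithelial array 2 and 16 without duct basal array 1. Calls of Slc41a1 (adjusted p = 0.0617), Slc30a4, Slc24a3, Slc6a8, Slc22a17, Slc39a11 and Slc1a4 ended without duct basal array 2. All of these but Slc41a1 and Slc1a4 also ended without myoepithelial array 2, those of Slc6a8, Slc39a11 and Slc1a4 without duct basal array 1, those of Slc24a3, Slc6a8 and Slc1a4 without myoepithelial array 1 and that of Slc1a4 without either epidermis array. The highest adjusted p among these was 0.172, for Slc22a17.

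Between the inner layers, luminal against duct suprabasal cells, 14 carriers passed (10.4%, against 15.2% of all genes), 8 higher in luminal cells (5.97%, against 4.95% of all genes) and 6 lower (4.48%, against 10.2%). With quantile normalization 14 were higher and 6 lower. Slc6a8 had 5814 and 5619 in luminal cells and 2597 and 1311 in duct suprabasal cells (1.62, SE 0.30, adjusted p = 0.00930). The folate carrier gene Slc46a1 had 581 and 539 in luminal cells and 295 and 106 in duct suprabasal cells (1.59, adjusted p = 0.0297). Slc8b1 (1.25), Slc22a17 (1.20), Slc22a18 (1.11) and Slc35b2, the Golgi carrier gene for the sulfate donor of glycans (1.04), completed the named genes that were higher, at adjusted p-values of 0.0281, 0.0303, 0.0369 and 0.0106. Lower in luminal cells were Slc43a3 (-3.68, adjusted p = 0.0162), Slc1a4 (-3.11, adjusted p = 0.00591) and Slc9a3r2 (-2.37, adjusted p = 0.0187).

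The calls between the inner layers changed with single arrays. The count of 14 was 1 without luminal array 1, 3 without luminal array 2, 40 without duct suprabasal array 1, 7 without duct suprabasal array 2 and 8 without either epidermis array, and 1 in a fit of the 4 arrays alone. Of the named genes only Slc1a4 passed without each array in turn. The 8 other calls ended without either luminal array, and those of Slc46a1, Slc8b1, Slc22a17, Slc22a18, Slc43a3 and Slc9a3r2 also without duct suprabasal array 2. Those of Slc46a1, Slc8b1 and Slc22a17 ended without either epidermis array and that of Slc22a18 without either duct basal array, and the adjusted p-values of these lost calls ran from 0.0512 to 0.178. Slc22a18 also missed the threshold with a pseudocount of 1 (adjusted p = 0.0505), with no filter (0.0603) and with the mean of its probe sets (0.0674).

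**Figure D5:**
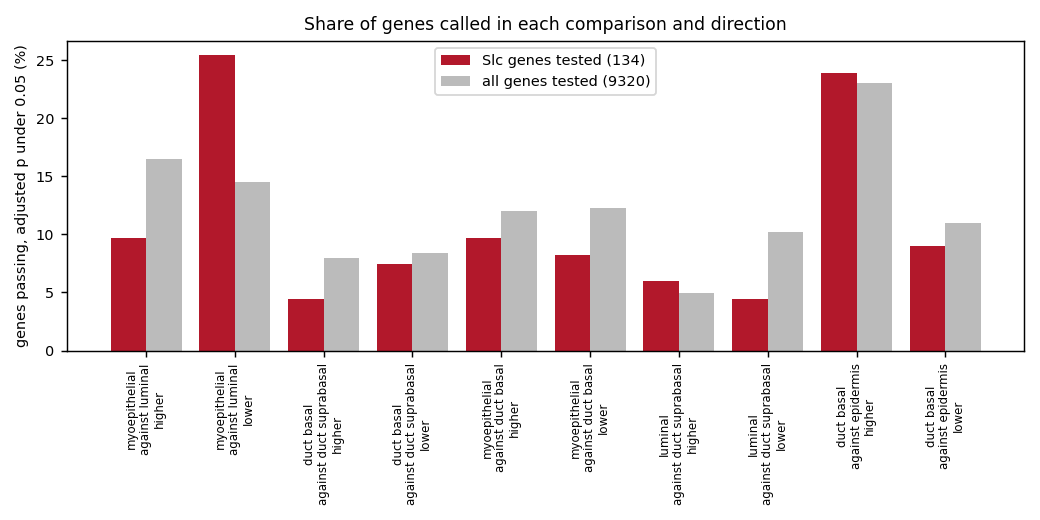
Percentage of genes that passed (adjusted p under 0.05) in each comparison and direction, for the 134 tested carriers (red) beside all 9320 tested genes (grey). The bars differ most for genes lower in myoepithelial than in luminal cells, with 25.4% of carriers and 14.5% of all genes.

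The epidermis was not divided by layer in the labels, and its suprabasal markers summed to 105720 and 103442, against 22714.8 and 43373.6 in duct basal cells. Differences of layer and of tissue thus cannot be told apart in this comparison. Between duct basal cells and epidermis 44 carriers passed (32.8%, against 34% of all genes). Of these 32 were higher in duct basal cells (23.9%, against 23% of all genes) and 12 lower (8.96%, against 11%). The median difference was 0.226 over the carriers and 0.236 over all genes. Quantile normalization moved the median of all genes to 0.0105 and gave 22 carriers higher and 17 lower, and the array median signals were 65.1 and 66.8 in epidermis and 91.9 to 119.2 elsewhere, so directions here are given relative to the scaling of each array. Ion carriers, symbols of no carrier left out, were higher for 8 of 18 tested, with 0 lower, and amino acid, peptide and neurotransmitter carriers for 9 of 27, with 1 lower.

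Slc35a1, the Golgi carrier gene for CMP-sialic acid, had signals of 914 and 749.6 in myoepithelial cells, 1773 and 1543 in luminal cells, 807 and 451 in duct basal cells, 1506 and 928 in duct suprabasal cells and 54 and 67.1 in epidermis. Epidermis was lowest by a wide margin, and duct basal cells exceeded it by 3.09 (SE 0.32, adjusted p = 0.000175). Slc6a6 (2.91, adjusted p = 0.0153), Slc1a4 (2.50, adjusted p = 0.00554), Slc7a6 (2.38, adjusted p = 0.00651) and Slc3a2 (2.23, SE 0.22, adjusted p = 0.000161) were the amino acid and taurine carriers among the named genes. Slc20a1 (2.43, adjusted p = 0.0182), Slc39a14 (2.32, SE 0.22, adjusted p = 0.000116) and Slc37a3 (1.93, SE 0.23, adjusted p = 0.000359) were the others. With the mean of the probe sets Slc6a6 (1.34, adjusted p = 0.0601), Slc1a4 (1.14, adjusted p = 0.0521) and Slc39a14 (0.96, adjusted p = 0.0737) no longer passed, and Slc6a6 did not pass with quantile normalization (2.48, adjusted p = 0.0526).

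On the epidermal side, Slc6a20a, a proline and imino acid carrier gene, had 0.8 and 16.1 in myoepithelial cells, 0.9 and 2.3 in luminal cells, 1.2 and 34.2 in duct basal cells, 52.3 and 3.6 in duct suprabasal cells and 356 and 310.2 in epidermis. Epidermis was above all other arrays, and duct basal cells were at -3.80 against it (SE 0.79, adjusted p = 0.00587). Outside epidermis the signals of Slc6a20a were below the 40th percentile of each array. It thus passed the filter on low values only through the epidermis arrays, and the size of its difference depends on the number added before the logarithm. Slc27a4, a fatty acid carrier gene known for the skin barrier in mice, had 278 and 342 in myoepithelial cells, 455 and 409.7 in luminal cells, 146 and 252 in duct basal cells, 216 and 311 in duct suprabasal cells and 622 and 603 in epidermis (-1.61, SE 0.29, adjusted p = 0.00306). Slc22a4, the ergothioneine carrier gene, differed by -1.75 (adjusted p = 0.0273), Slc22a23, an orphan member of its family, by -1.56 (adjusted p = 0.0399), Slc35f6 by -1.26 (adjusted p = 0.00664), Slc39a6 by -1.10 (SE 0.16, adjusted p = 0.000992) and Slc66a1, a lysosomal amino acid carrier gene, by -1.001 (adjusted p = 0.0230). Of these, Slc22a4 and Slc22a23 were also bright in luminal cells. Slc22a4 had 881 and 788 in luminal cells and 824 and 805 in epidermis, and Slc22a23 had 891 and 842 in luminal cells and 458 and 456 in epidermis.

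The count of 44 was 23 without duct basal array 1, 24 without epidermis array 1 and 28 without epidermis array 2. Without duct basal array 1 the calls of Slc20a1, Slc7a6 (adjusted p = 0.0566), Slc6a20a (0.0514), Slc22a4, Slc22a23 and Slc66a1 ended. Without epidermis array 1 those of Slc6a6, Slc20a1, Slc22a4, Slc22a23 and Slc66a1 ended, without epidermis array 2 those of Slc20a1, Slc22a4 and Slc22a23, without duct basal array 2 those of Slc6a6, Slc22a4 and Slc22a23, and without either luminal array that of Slc22a23. The highest adjusted p was 0.160, for Slc66a1. With no intensity trend in the fit Slc22a23 had 0.0576.

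The set of a population holds the genes that exceeded all 4 other populations there, each by 2-fold or more and with an adjusted p under the threshold. This held for 13 carriers (9.70%, against 11.8% of all genes). The myoepithelial set held Slc20a2 and Slc24a3 (1.49%, against 3.50% of all genes), and the luminal set Slc6a8, Slc8b1 and Slc22a18 (2.24%, against 1.32%). The duct basal set held Slc1a4 and Slc6a4 (1.49%, against 1.91%), and the duct suprabasal set Slc9a3r2 and Slc43a3 (1.49%, against 1.34%). The epidermal set was Slc39a6, Slc6a20a, Slc37a2, a sugar phosphate carrier gene, and Slc46a2, which made 2.99% of the carriers, against 3.77% of all genes, with 189 and 156 for Slc37a2 and 113 and 118 for Slc46a2 in epidermis and at most 57 and 39 elsewhere. Slc6a20a and Slc46a2 passed the filter on low values only through the epidermis arrays, and Slc43a3 only through the duct suprabasal arrays. Membership needs every such call. For Slc24a3, Slc6a8, Slc8b1, Slc22a18, Slc1a4, Slc6a4, Slc9a3r2, Slc43a3, Slc6a20a and Slc46a2 a call it needs ended without at least 1 array. The call of Slc20a2 against luminal cells ended with the mean of its probe sets. The count of 13 was 26 without duct suprabasal array 1, 7 without duct basal array 1, 8 without luminal array 1 and 7 without luminal array 2.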

How the data were processed

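The deposited values are MAS5 signal intensities, 1 per probe set and array, made by the authors with MAS5 per the submitters' processing notes; its version and settings are not given in the sources used here. Trimming 2% at either end, each array had a mean signal of 500. The array names 22690 probe sets, 64 of them controls. Per GEO's platform annotation 20380 named 1 gene, 691 several and 1555 were unlisted, and genes with several probe sets were read from the one with the highest mean. A gene was tested where it lay above its array's 40th percentile on at least 2 of 10 arrays (percentiles 33.5 to 60.3), which left 9320.

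Differences of log2(signal + 12) were fitted with limma 3.58.1 in R 4.3.3 (lmFit, eBayes with an intensity trend), 1 coefficient per population, with 5 residual degrees of freedom. The number of arrays limits the precision, and values of different probe sets were not set against each other. The fit was also run on simulated data with the same spread in each population. The spread of the real arrays differed between populations, so that run says nothing of error rates here. Named genes had an adjusted p under 0.05, at least 2-fold, arrays without overlap and a higher mean above the median of tested genes, up to 8 per direction; the calls of the ion families Slc4, Slc9, Slc12 and Slc26 and all members of the population sets were named as well. The members and lists were chosen with earlier results of these data known. Alternatives were other pseudocounts and filters, quantile normalization, the mean of all probe sets, no trend, the replicate number as a block, the 4 arrays compared alone and arrays left out; leaving out 2 arrays together was added after the data were seen. Promoters are from RefSeq on GRCm38.p6.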

Additional observations from a re-analysis of the deposited data

Results flagged for a closer look

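In 12 carriers the difference between the layers of the coil (myoepithelial minus luminal) differed from that between the layers of the duct (basal minus suprabasal), by the interaction term of the limma fit, against 16% of all genes. The coil difference minus the duct difference was positive in Slc9a3r2 (3.76, adjusted p = 0.0119), Slc43a3 (4.01, adjusted p = 0.0398), Slc30a4 (2.12, adjusted p = 0.0129), Slc39a14 (1.60, adjusted p = 0.0107) and Slc20a2 (1.37, adjusted p = 0.0130). It was negative in Slc6a4 (-2.34, adjusted p = 0.0244), Slc22a18 (-2.29, adjusted p = 0.00827), Slc38a4 (-2.15, adjusted p = 0.0439), Slc39a11 (-1.94, adjusted p = 0.0156), Slc27a1 (-1.84, adjusted p = 0.0160), Slc7a4 (-1.72, adjusted p = 0.0301) and Slc35a4 (-1.08, adjusted p = 0.0234).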

How the results depend on the processing

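Of the 64 results named by the rule, 29 passed without each array in turn and 35 ended without at least 1. All 64 kept direction and threshold with a pseudocount of 50 or with the replicate number as a block, 62 each with a pseudocount of 1, no filter, no trend or quantile normalization, 55 with the mean of all probe sets and 45 with the 4 arrays compared alone. With a stricter filter, 62 of the 62 that could be tested did. The difference of Slc39a6 between myoepithelial and luminal cells, 0.75, turned to -0.21 with the mean of all probe sets; the cause was not tested. Leaving out 1 array gave 23 to 57 carriers between the coil layers (47 with all arrays), 5 to 37 between the duct layers (16), 5 to 30 between the outer layers (24), 1 to 40 between the inner layers (14), 23 to 51 for duct basal cells against epidermis (44), 70 to 92 in the F test (83), 5 to 26 in the interaction (12) and 7 to 26 in the population sets (13). The replicate block gave 29 between the duct layers, 27 between the inner layers, 20 in the interaction and 20 in the sets, and did not move the other counts by over 1.5 times. The labels describe no pairing; deviations of same-numbered arrays correlated at 0.121 to 0.357 among the 4 gland and duct populations and at 0.0257 to 0.0878 with epidermis, so whether the numbers mark a shared source cannot be told. The 4 arrays alone gave 3 between the duct layers and 1 between the inner layers, with fewer arrays in the fit. Without myoepithelial array 1 and duct suprabasal array 1 the inner layers gave 49, the interaction 33 and the sets 30, and without myoepithelial array 1 and duct suprabasal array 2 the duct layers gave 41, the inner layers 8 and the sets 8; both were chosen after seeing the data. Quantile normalization moved the median of all genes in luminal against duct suprabasal cells to 0.0811, against -0.0581 before, and in duct basal against suprabasal cells to 0.0856, against -0.0232. With 2 arrays a population, dim carriers such as Slc26a7 have the least signal over background.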
